A study of Mus musculus with 6 samples.

Results

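The 10 genes described here mark macrophages and monocytes, or encode proteins that these cells use to bind and clear material. They are Emr1, Mpeg1, Cd68, Lyz2, Msr1, Ly6c2, Cd300lf, F13a1, Fn1 and Vcan. They were taken by symbol from a deposited table of 13839 genes, and all 10 were found, each in 1 row. RNA was sequenced from MLL-ENL-ERtm, a mouse line with the MLL-ENL fusion, labelled acute monocytic leukemia. In 3 libraries the cells carried retroviral hairpins that target Tet1 (shTet1, which the design text equates with an earlier shTet1-a+b), and in the other 3 a scrambled hairpin (shNS). Both groups were selected with puromycin over 3 passages and adapted to SILAC medium, which is used for protein labelling, before polyadenylated RNA was made into directional libraries. The labels name no separate cultures, so the spread between libraries may be technical.

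Macrophages arise from monocytes, or from embryonic precursors that settle in tissues, and take up bacteria, dying cells and modified lipoproteins. F4/80, the product of Emr1 (now named Adgre1), is the antigen most used to stain mouse macrophages. CD68 and scavenger receptor A (Msr1) belong to the uptake and degradation route, and lysozyme M (Lyz2) and perforin-2 (Mpeg1) act against bacteria. Ly-6C on the cell surface marks classical monocytes of the mouse. Fibronectin (Fn1) and versican (Vcan) are matrix proteins that monocytes can make along with fibroblasts.

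Of the 10 genes, 9 were higher and 1, Vcan, was lower in shTet1 (limma on log2(FPKM + 1), adjusted p under 0.05). Among all 11646 genes tested, 19.4% were higher and 33.7% lower, the shares to set beside the list counts below. The 9 and 1 calls were also made with the replicate number as a block, where 23.1% of all genes were higher and 41.0% lower, and by limma-voom on reads, with 18.6% and 31.6%. In the authors' deposited table, whose adjusted p was under 0.05 for 23.7% of genes higher and 22.1% lower, the 10 genes had the same directions. With median-of-ratios scaling, which moved the median log2 change of all genes by 0.12, 24.9% of genes were higher and 23.6% lower, and the 9 and 1 calls were the same. The median log2 change of the 10 genes was 1.58, against −0.13 over all genes tested. FPKM divides reads by gene length and library size, so levels can be set side by side between genes. The 9 genes had between 1.95 and 4.34 times the shNS mean FPKM in shTet1. In all 10, the lowest and highest libraries of each group left a gap between the groups, as they did for 22.6% of genes tested with shTet1 above and 39.1% with shTet1 below. In such bulk libraries, more cells of a kind and more RNA per cell cannot be told apart.

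The libraries held 15873632 to 18592139 reads on genes of the table. Tet1 had 25, 39 and 31 reads in shTet1 replicates 1, 2 and 3, against 128, 93 and 106 reads in shNS. Macrophage markers ranged from well expressed to low. Csf1r, the receptor gene for macrophage colony-stimulating factor, was at 125.5 ± 26.6 FPKM in shTet1 and 25.7 ± 3.46 FPKM in shNS (SD, n = 3 each). Mrc1 was at 59.0 ± 2.70 FPKM in shTet1 and 15.1 ± 1.60 FPKM in shNS, and Fcgr1 at 23.4 ± 4.34 and 9.94 ± 1.05 FPKM. Mertk was at 2.03 ± 0.391 FPKM in shTet1 and 0.463 ± 0.177 FPKM in shNS, and C1qc at 1.145 ± 0.645 and 0.182 ± 0.143 FPKM. C1qa and C1qb were not analysed here. Among 11 stromal markers Col1a1, Col1a2, Col3a1, Dcn, Lum and Postn were not analysed here, and the 5 others summed to 24.2 to 25.5 FPKM in shTet1 and 47.7 to 55.0 FPKM in shNS. Most of that sum was Thy1, which is also made by other cells and fell, with 17.9 ± 0.624 FPKM in shTet1 and 47.2 ± 4.13 FPKM in shNS. The other one tested, Acta2, was higher, at 6.29 ± 0.618 FPKM in shTet1 and 4.67 ± 0.358 FPKM in shNS, a call lost without shTet1 replicate 2 or shNS replicate 3 (limma adjusted p 0.0698 and 0.0807), and Pdgfra, Pdgfrb and Col5a1 lay under 0.3 FPKM on average in each group. Markers of neutrophils, of their granules and others, summed to 6398 to 10341 FPKM in shTet1 and 8032 to 9587 FPKM in shNS. Of 13 tested, 3 were higher and 6 lower, beside 19.4% higher and 33.7% lower over all genes tested. The largest part of the sum was S100a8, at 2287 ± 897 FPKM in shTet1 and 2270 ± 415 FPKM in shNS. Ltf fell (log2 change −2.49) and Mmp8 rose (1.84). The rise of Lcn2 (0.38) did not pass in 7 of 13 alternative fits, nor the fall of S100a9 (−0.85) in 5. Markers of stem and progenitor cells summed to 154 to 181 FPKM in shTet1 and 351 to 378 FPKM in shNS, with 0 genes higher and 9 lower of 10 tested. Their part in the rise of the 9 genes was not tested.

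**Figure D1:**
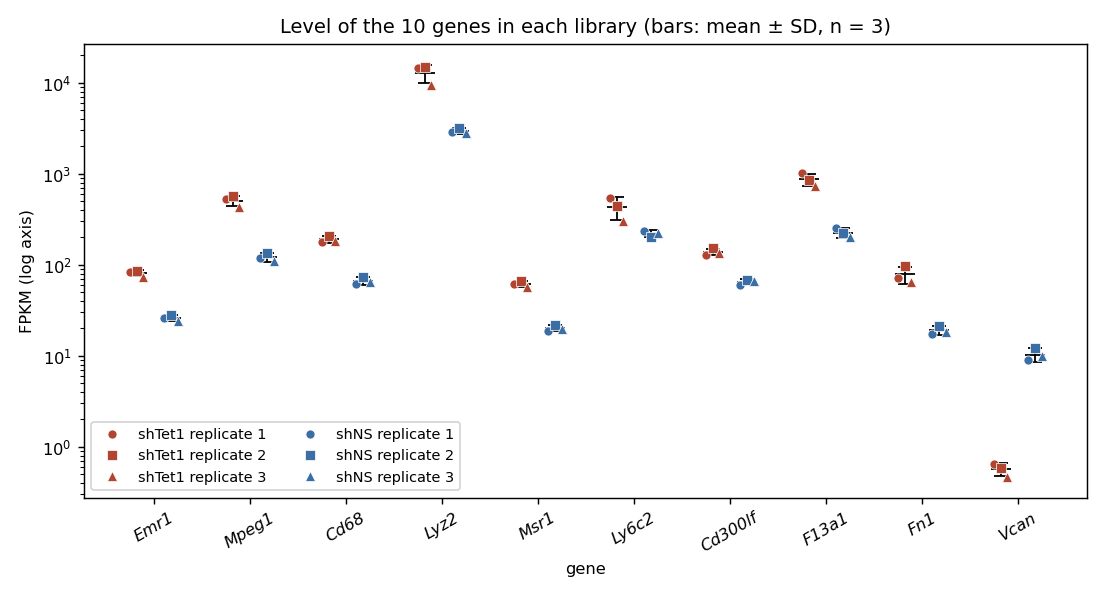
FPKM (log axis) of the 10 genes in each library, with shTet1 in red to the left of shNS in blue, symbols for replicates 1 to 3, and bars for the mean ± SD (n = 3). The red points lie above the blue ones for 9 genes and below them for Vcan, where shTet1 libraries lie between 0.467 and 0.650 FPKM.

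Emr1 (gene ID 13733, chr17:57358581-57483529, GRCm38) encodes F4/80, an adhesion G protein-coupled receptor of mouse macrophages. It stood at 83.9, 85.7 and 74.2 FPKM in shTet1 replicates 1, 2 and 3, against 26.3, 27.8 and 24.2 FPKM in shNS. The 3 shTet1 libraries lay close together, and the lowest had 2.67 times the highest shNS library. The log2 change was 1.60 (SE 0.09, limma adjusted p = 4.45e-05). The mean was 81.3 ± 6.19 FPKM in shTet1 and 26.1 ± 1.82 FPKM in shNS (SD, n = 3 each). Of 6 other adhesion receptor genes of leukocytes tested, 0 rose and 5 fell, and limma-voom on reads, which tests more low genes, called 1 higher. Gpr56, known from stem cells and lymphocytes, was at 12.45 ± 1.48 FPKM in shTet1 and 59.7 ± 2.99 FPKM in shNS (log2 change −2.18), and Gpr97 changed by −0.78 and Lphn1 by −1.26. Cd97, which completes the 6, was at 3.29 ± 1.43 FPKM in shTet1 and 3.62 ± 0.434 FPKM in shNS (limma adjusted p = 0.586).

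Mpeg1 (gene ID 17476, chr19:12460770-12465285) encodes perforin-2, a pore-forming protein that phagocytes use against ingested bacteria. Its levels were 526, 564 and 430.1 FPKM in shTet1 replicates 1, 2 and 3, against 118.5, 135 and 109.5 FPKM in shNS. The groups were far apart although shTet1 replicate 3 lay below the other shTet1 libraries. Its log2 change was 2.05 (SE 0.12, limma adjusted p = 5.05e-05), which ranked 35 from the top among all genes tested.

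Cd68 (gene ID 12514, chr11:69664213-69666170) encodes a heavily glycosylated protein of lysosomes and endosomes, related to the LAMP proteins and counted among the scavenger receptors. It was measured at 180.2, 207 and 182.5 FPKM in shTet1 replicates 1, 2 and 3, and at 61.9, 74.0 and 64.6 FPKM in shNS. In each group replicate 2 was the highest, and the ratio of shTet1 to shNS within a replicate number was 2.91, 2.80 and 2.83. The log2 change was 1.49 (SE 0.10, limma adjusted p = 5.05e-05). Of 9 other genes for lysosome-associated membrane proteins tested, 6 rose, 1 fell and 2 did not pass. Of the 6 rises, that of Laptm5 (0.51) did not pass in 4 of 13 alternative fits. Lamp1, which encodes an abundant protein of the lysosomal membrane, was at 463 ± 18.5 FPKM in shTet1 and 209 ± 8.86 FPKM in shNS (1.15), and the cholesterol exporter gene Npc1 changed by 0.89. The fall of Lamp3 (−0.47) did not pass without shNS replicate 1 (limma adjusted p 0.0813) or shTet1 replicate 2 (0.0941), or without both replicate 1 libraries (0.0983).

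Lyz2 (gene ID 17105, chr10:117277541-117282272) encodes lysozyme M, which cuts the cell walls of bacteria. Its levels were 14463, 14763 and 9456 FPKM in shTet1 replicates 1, 2 and 3, and 2912, 3221 and 2789 FPKM in shNS. It had the highest FPKM of all genes of the table in every shTet1 library, whereas it ranked 5, 3 and 4 in shNS replicates 1, 2 and 3. Its reads were 1.53, 1.56 and 1.00% of the reads on genes of the table in shTet1 and 0.308, 0.341 and 0.295% in shNS. For Lyz2 the log2 change came to 2.09 (SE 0.18, limma adjusted p = 0.000104), and without shTet1 replicate 3 it was 2.30. That library held less Lyz2 than the other shTet1 libraries, yet 2.94 times the highest shNS library.

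Msr1 (gene ID 20288, chr8:39543232-39642750) encodes scavenger receptor A, a trimeric receptor that binds modified lipoproteins and bacterial surfaces. It stood at 61.0, 67.0 and 56.9 FPKM in shTet1 replicates 1, 2 and 3, against 18.9, 22.05 and 19.9 FPKM in shNS. The spread within a group was small, with coefficients of variation of 8.20% in shTet1 and 7.93% in shNS. The log2 change was 1.56 (SE 0.09, limma adjusted p = 5.05e-05). Of 8 other scavenger receptor genes tested, 6 rose, 0 fell and 2 did not pass. The mannose receptor gene Mrc1 was at 59.0 ± 2.70 FPKM in shTet1 and 15.1 ± 1.60 FPKM in shNS (1.90). Lrp1, a large endocytic receptor of the lipoprotein receptor family, was at 70.2 ± 9.83 FPKM in shTet1 and 16.2 ± 2.22 FPKM in shNS (2.05), and Scarb2, a lysosomal membrane receptor, changed by 1.00. Marco and Cd36, scavenger receptors of mature macrophages, lay under the filter of 1 FPKM in at least 3 libraries, with Marco at 1.69 ± 0.960 FPKM in shTet1 and 0.660 ± 0.185 FPKM in shNS and Cd36 at 0.144 ± 0.117 FPKM in shTet1 and 0.0719 ± 0.0301 FPKM in shNS. Cd163 likewise stood at 0.236 ± 0.0483 FPKM in shTet1 and 0.347 ± 0.0604 FPKM in shNS.

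Ly6c2 (gene ID 100041546, chr15:75108161-75112066) encodes a form of the Ly-6C antigen of classical monocytes. Its levels were 545, 444 and 304 FPKM in shTet1 replicates 1, 2 and 3, and 238, 200.1 and 224 FPKM in shNS. Among the 9 genes that rose it had the smallest change and the widest shTet1 group, with a coefficient of variation of 28.1%, against 8.72% in shNS. The ratio of shTet1 to shNS was 2.29 and 2.22 for replicates 1 and 2 and 1.35 for replicate 3. For Ly6c2 the log2 change came to 0.92 (SE 0.20, limma adjusted p = 0.00546), and it was 1.16 without shTet1 replicate 3 and 0.74 without shTet1 replicate 1. Of the other Ly6 genes, 3 of 4 tested rose, of which Ly6i did not pass without shNS replicates 2 or 3 or shTet1 replicates 1 or 2 in turn (limma adjusted p 0.0899, 0.0842, 0.0606 and 0.111) and without both replicate 1 libraries (0.0662).

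Lyz2 and Ly6c2 each have a near copy in the genome. Of the 51-base windows of their annotated transcripts, the length of a read, 14.8% of those of Lyz2 also occurred in Lyz1, and 13.6% of those of Ly6c2 in Ly6c1. Lyz1 stood at 2893, 2926 and 1841 FPKM in shTet1 replicates 1, 2 and 3, and at 558, 619 and 544 FPKM in shNS. Relative to Lyz2 this was 20, 19.8 and 19.5% in shTet1 and 19.2, 19.2 and 19.5% in shNS. The Lyz1 level thus followed that of Lyz2 in every library. Ly6c1 was at 31.2, 31.4 and 30.8% of Ly6c2 in shTet1 and at 31.1, 30.9 and 30% in shNS. How the authors assigned reads that match both copies is unknown. Most windows of Lyz2 and of Ly6c2 did not occur in the copy, and the copy stood at a lower FPKM in every library. Reads were not divided by window. How much of the Lyz1 and Ly6c1 signal came from reads of Lyz2 and Ly6c2, or the reverse, was therefore not tested. Among the others, Emr1, Mpeg1, Cd68, Msr1 and Vcan shared 0 windows with another gene, and F13a1, Cd300lf and Fn1 shared 0.359, 2.33 and 2.45%.

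**Figure D2:**
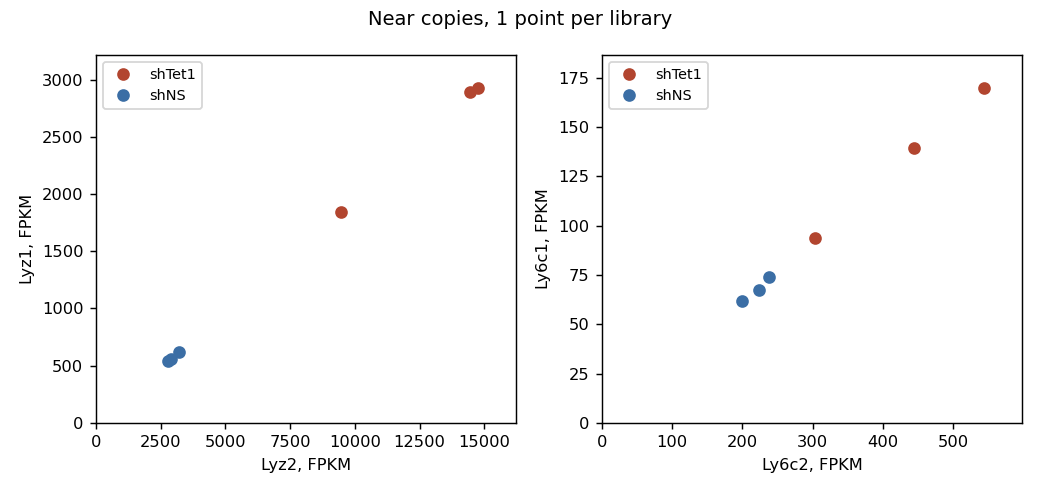
FPKM of Lyz1 against Lyz2 (left) and of Ly6c1 against Ly6c2 (right), 1 point per library, with shTet1 in red and shNS in blue. The points of each pair lie along a line through the origin, with Lyz1 at 19.2 to 20% of Lyz2 and Ly6c1 at 30 to 31.4% of Ly6c2.

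Cd300lf (gene ID 246746, chr11:115116214-115135372) encodes CD300f, an immunoglobulin-like receptor of myeloid cells that binds lipids and can inhibit signalling. It stood at 129, 151 and 136.5 FPKM in shTet1 replicates 1, 2 and 3, against 60.4, 68.5 and 67.2 FPKM in shNS. The shTet1 libraries lay above all shNS libraries, with the lowest at 1.88 times the highest shNS library. The log2 change was 1.07 (SE 0.09, limma adjusted p = 0.000107). Its span overlaps that of Rab37, and since the strand setting of the authors' counting is not given, reads of the overlap cannot be assigned with certainty. Of 13 genes of the CD300 and TREM receptor families tested beside it, 12 rose and 1 fell. Trem2, a lipid-sensing receptor of macrophages, was at 83.9 ± 9.47 FPKM in shTet1 and 20.5 ± 2.19 FPKM in shNS (1.98), Cd300lb changed by 1.60 and AF251705, now named Cd300c2, by 1.71. Treml2 fell, with 24.4 ± 3.98 FPKM in shTet1 and 40.7 ± 4.41 FPKM in shNS (−0.72). Gm11710 and Gm11711 of this family had identical values and are not independent.

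F13a1 (gene ID 74145, chr13:36867178-37050244) encodes the A subunit of factor XIII, the transglutaminase that cross-links fibrin and that monocytes and macrophages contain. Its levels were 1011, 854 and 741 FPKM in shTet1 replicates 1, 2 and 3, and 254, 225 and 199.7 FPKM in shNS. Replicate 1 was the highest and replicate 3 the lowest in each group, and the ratio within a number was 3.98, 3.79 and 3.71. For F13a1 the log2 change came to 1.93 (SE 0.14, limma adjusted p = 5.79e-05), with a standard error of 0.05 when the replicate number was added as a block. Of 12 other transglutaminase and coagulation genes tested, 6 rose, 1 fell and 5 did not pass, and 8 rose with median-of-ratios scaling. The coagulation factor gene F7 was at 242.5 ± 27.4 FPKM in shTet1 and 71.9 ± 12.5 FPKM in shNS (1.75), and F10 at 267 ± 30.3 FPKM in shTet1 and 124 ± 9.76 FPKM in shNS (1.09). Tgm2, the transglutaminase of many macrophages, was at 4.80 ± 0.948 FPKM in shTet1 and 6.88 ± 1.81 FPKM in shNS (−0.43, limma adjusted p = 0.0938).

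Fn1 (gene ID 14268, chr1:71585473-71653280) encodes fibronectin, which links cells to matrix through integrins. It was at 71.9, 97.9 and 65.2 FPKM in shTet1 replicates 1, 2 and 3, and at 17.4, 21.2 and 18.4 FPKM in shNS. Replicate 2 was the highest in each group, and the lowest shTet1 library had 3.07 times the highest shNS library. For Fn1 the log2 change came to 1.97 (SE 0.15, limma adjusted p = 8.09e-05). Of 12 genes for fibronectin receptors and other matrix proteins tested, 9 rose, 2 fell and 1 did not pass. The rise of Emilin1 (0.26) did not pass in 5 of 13 alternative fits, nor that of Itgav (0.31) in 2. Thrombospondin 1 (Thbs1) was at 218.5 ± 5.33 FPKM in shTet1 and 63.6 ± 1.03 FPKM in shNS (1.76), Tgfbi at 42.0 ± 7.63 FPKM in shTet1 and 8.52 ± 1.99 FPKM in shNS (2.18) and osteopontin (Spp1) at 308 ± 22.9 FPKM in shTet1 and 121 ± 8.36 FPKM in shNS (1.34). Itgb3 (−0.91) and Col4a2 (−0.76) fell. Fibronectin is also a product of fibroblasts, whose marker Pdgfra was at 0.1805 ± 0.00741 FPKM in shTet1 and 0.0224 ± 0.0121 FPKM in shNS, and Pdgfrb at 0.207 ± 0.0237 FPKM in shTet1 and 0.133 ± 0.0225 FPKM in shNS.

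Vcan (gene ID 13003, chr13:89655309-89743027) encodes versican, a large chondroitin sulfate proteoglycan that binds hyaluronan and is a known transcript of classical monocytes. It was at 0.650, 0.581 and 0.467 FPKM in shTet1 replicates 1, 2 and 3, against 8.89, 12.25 and 9.84 FPKM in shNS. These levels rest on 176, 155 and 111 reads in shTet1 and 2479, 3096 and 2490 reads in shNS. The shTet1 mean was 5.48% of the shNS mean. The log2 change was −2.85 (SE 0.13, limma adjusted p = 1.88e-05), the fall that ranked 2 among all genes tested. It passed the filter on low values through its shNS libraries alone. Adding 1 FPKM shrinks the change of a gene at this level, and limma-voom on reads gave −4.18 (SE 0.18, limma-voom adjusted p = 4.31e-06). In the authors' deposited table Vcan had the smallest p-value of all genes, with a log2 change of −4.05 and an adjusted p of 7.34e-111. Of the genes listed as partners of versican or as enzymes that cleave it, 3 were tested and all 3 rose: the hyaluronan receptor gene Cd44 (0.70), Tlr2 (1.15), a receptor that versican can bind, and the selectin ligand gene Selplg (0.64). Of the ADAMTS proteases that cleave versican, 6 were listed and not analysed here.

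**Figure D3:**
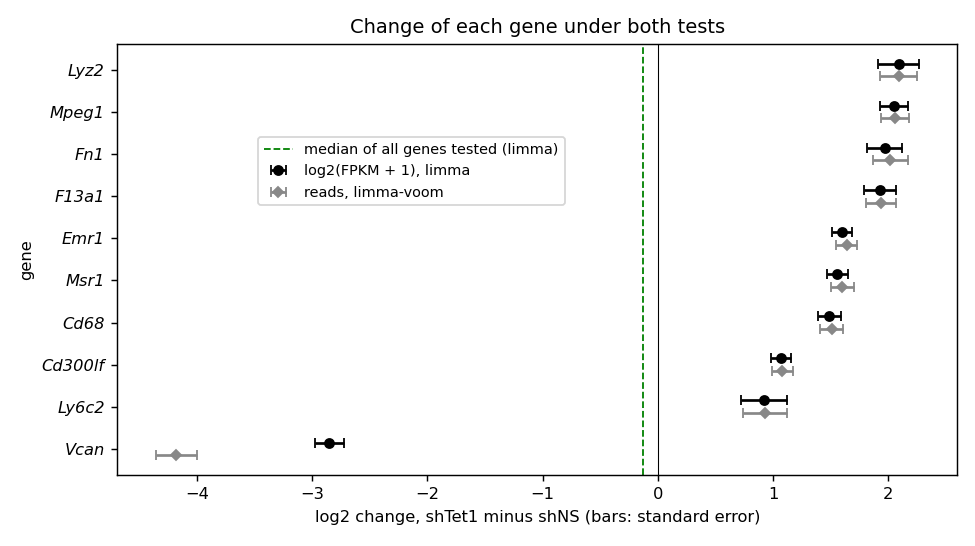
Log2 change (shTet1 minus shNS) of each gene on log2(FPKM + 1) with limma (black) and on reads with limma-voom (grey), with standard errors; the dashed line marks the median of all genes tested, −0.13. The 9 rises run from 0.92 to 2.09 with limma and lie close to the limma-voom values, whereas Vcan is at −2.85 and −4.18.

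The changes fell into a few steps. Lyz2, Mpeg1, Fn1 and F13a1 had log2 changes of 2.09, 2.05, 1.97 and 1.93, which lie within 1 standard error of each other from neighbour to neighbour. Emr1, Msr1 and Cd68 followed at 1.60, 1.56 and 1.49, and Cd300lf and Ly6c2 at 1.07 and 0.92. The order of the levels differed between the groups. In shTet1 the order was Lyz2, F13a1, Mpeg1, Ly6c2, Cd68, Cd300lf, Emr1, Fn1, Msr1 and Vcan, where the libraries of Mpeg1 and Ly6c2, of Emr1 and Fn1, and of Fn1 and Msr1 overlapped. In shNS, Ly6c2 came before Mpeg1 and Msr1 before Fn1, and the libraries of F13a1 and Ly6c2, of Cd68 and Cd300lf, and of Msr1 and Fn1 overlapped. Of the reads on genes of the table, the 10 genes took 2.36, 2.38 and 1.66% in shTet1 replicates 1, 2 and 3. In shNS they took 0.543, 0.582 and 0.507%.

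The libraries of a group did not spread alike for all genes. In shTet1, replicate 3 was the lowest library for 8 of the 10 genes, the exceptions being Cd68 and Cd300lf, and replicate 2 the highest for 7. Over all genes called higher, which leave out Vcan, replicate 3 was the lowest shTet1 library for 51.9%, and over all genes tested for 28.7%. Replicate 2 was the highest shTet1 library for 38.9% of the genes called higher and 18.4% of all genes tested. In shNS, replicate 2 was the highest library for 8 of the 10 genes, against 43.5% of the genes called higher and 30.1% of all genes tested. The counts among the 10 genes were the same with median-of-ratios scaling. On the first principal component of all genes tested, shTet1 replicates 1, 2 and 3 scored 35, 35.2 and 22.7 and the shNS libraries −30.2, −29.5 and −33.2. Without shTet1 replicate 3 the 9 genes remained higher and Vcan lower.

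**Figure D4:**
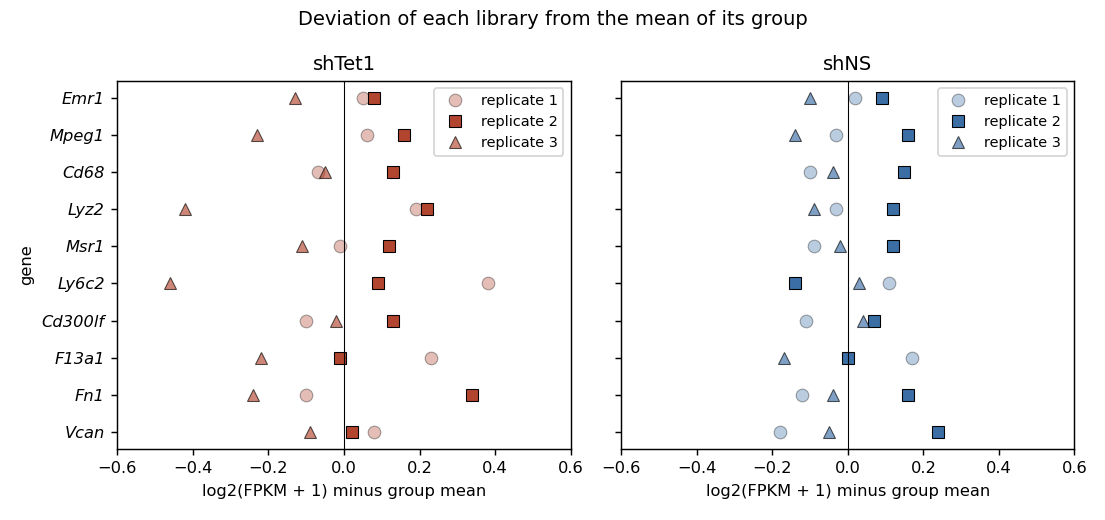
Deviation of each library from the mean of its group on log2(FPKM + 1), for shTet1 (left) and shNS (right), with symbols for replicates 1 to 3. In shTet1, replicate 3 (triangles) is lowest for 8 of 10 genes and reaches −0.46 for Ly6c2 and −0.42 for Lyz2, whereas shNS deviations stay between −0.18 and 0.24.

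The genes whose centred log2 values over the 6 libraries were closest to each of the 10 were also found, by root-mean-square difference. For Lyz2 and Ly6c2 these were their copies Lyz1 (0.022) and Ly6c1 (0.018). Cd68 was closest to Pld4 (0.039), an exonuclease gene of the endolysosome, and Msr1 to Sgpl1 (0.046) and then to Cd68 (0.049). Emr1 was closest to Rassf4 (0.047), Mpeg1 to Trem2 (0.055), Cd300lf to Plxdc2 (0.038), F13a1 to the transcription factor gene Klf4 (0.059) and Fn1 to the cathepsin gene Ctsl (0.070). Klf4 was at 41.2, 35.8 and 31.7 FPKM in shTet1 replicates 1, 2 and 3 and at 10.98, 9.37 and 7.585 FPKM in shNS, with replicate 1 highest and replicate 3 lowest in each group, as for F13a1. Among the genes searched, which leave out those of lower mean level, Vcan had none as near. Its closest was Gem (0.13), at 3.53, 3.58 and 3.655 FPKM in shTet1 and 32.3, 33.9 and 28.4 FPKM in shNS. Over 6 libraries in 2 groups, likeness of this kind includes likeness in the size of the change.

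Other genes of the macrophage and monocyte programme were counted from lists. Of 14 tissue macrophage genes tested, 13 rose and 1 fell, with a median log2 change of 1.43. The rise of Axl (0.40) did not pass in 2 of the 12 alternative fits that tested it. Clec7a, which encodes the fungal glucan receptor dectin-1, was at 68.2 ± 10.8 FPKM in shTet1 and 14.1 ± 2.36 FPKM in shNS (2.20). The gene that fell was the lipid carrier gene Apoe (−0.61), whose call was lost when libraries were scaled by median of ratios (adjusted p 0.095 in limma) and without shTet1 replicates 1 or 2 (0.0678 and 0.0627) or shNS replicates 2 or 3 (0.118 and 0.128). C1qc, Vsig4, Siglec1 and Cd163, markers of resident macrophages, lay under the filter, with C1qc at 1.145 ± 0.645 FPKM in shTet1 and 0.182 ± 0.143 FPKM in shNS and Siglec1 at 0.780 ± 0.286 FPKM in shTet1 and 0.114 ± 0.0147 FPKM in shNS. Of 19 monocyte genes tested, 15 rose, 1 fell and 3 did not pass. The rise of Chil3 (0.64) did not pass in 7 of 13 alternative fits. The endotoxin co-receptor gene Cd14 was at 103 ± 14.2 FPKM in shTet1 and 31.6 ± 2.76 FPKM in shNS (1.67), and the transcription factor gene Irf8 changed by 1.22. Spn, which encodes CD43, fell (−0.73).

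**Figure D5:**
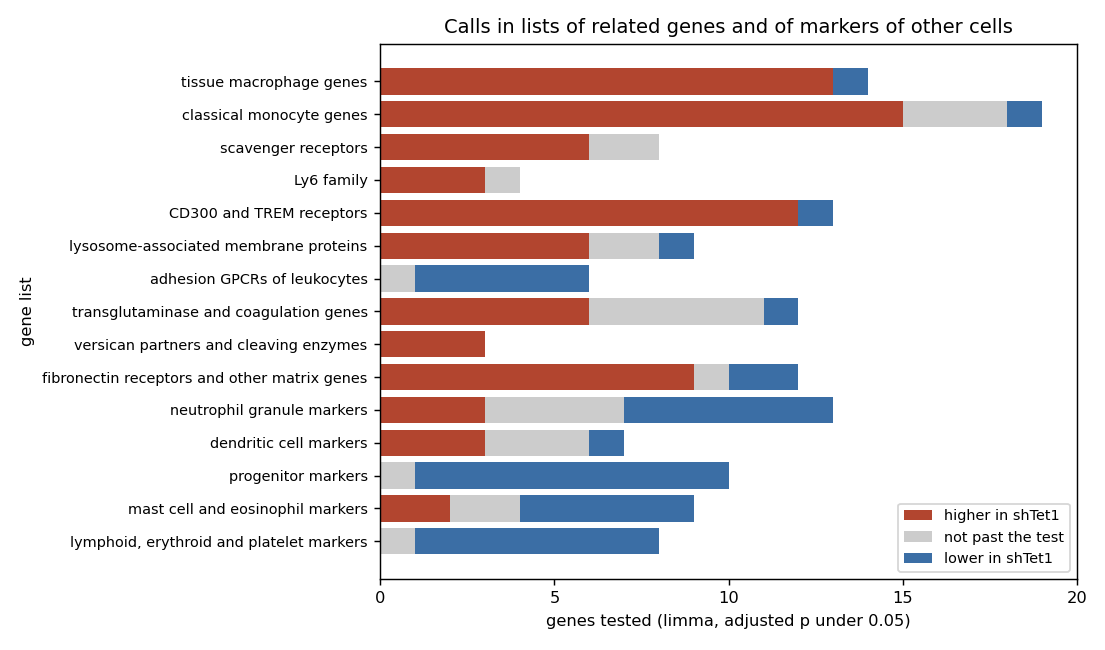
Number of genes higher (red), not past the test (grey) and lower (blue) in shTet1 in each list with at least 3 genes tested, the 10 genes themselves left out. Red makes up 13 of 14 tissue macrophage genes, 15 of 19 monocyte genes and 12 of 13 CD300 and TREM receptor genes, and blue 5 of 6 adhesion receptors and 9 of 10 progenitor markers.

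Promoter sequences from RefSeq (GRCm38.p6) were used for 7 of the 10 genes, and those of Emr1, Msr1 and Fn1 were not used here. Those of Cd68, Lyz2 and F13a1, which rose, and of Vcan, which fell, are shown. Each is the 250 bases before an annotated start site, 5′ to 3′ on the strand of the gene. The Vcan and Cd300lf windows lie inside the gene spans given above, and the Ly6c2 windows reach into its span. The start sites used for these genes thus lie within the genes. The sequences of Mpeg1, Ly6c2 and Cd300lf, which also rose, are not shown. Whether promoter sequence bears on the direction of change was not tested. Capitals mark matches to GAGGAAG (PU.1 core), TTGCNNAA (C/EBP core) or TGANTCA (AP-1 site), searched on both strands. F13a1 and Ly6c2 each have 2 windows, and the counts and the F13a1 sequence shown use the first listed. The other F13a1 window, chr13:37049214-37049463, lies inside the gene span and held 0 matches to the motifs searched.
Cd68, chr11:69666171-69666420, minus strand: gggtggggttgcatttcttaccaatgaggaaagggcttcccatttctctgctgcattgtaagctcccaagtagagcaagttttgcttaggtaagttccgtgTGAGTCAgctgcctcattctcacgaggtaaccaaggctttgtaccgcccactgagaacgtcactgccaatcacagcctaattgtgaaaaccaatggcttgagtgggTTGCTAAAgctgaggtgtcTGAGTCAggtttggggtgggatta
Lyz2, chr10:117282273-117282522, minus strand: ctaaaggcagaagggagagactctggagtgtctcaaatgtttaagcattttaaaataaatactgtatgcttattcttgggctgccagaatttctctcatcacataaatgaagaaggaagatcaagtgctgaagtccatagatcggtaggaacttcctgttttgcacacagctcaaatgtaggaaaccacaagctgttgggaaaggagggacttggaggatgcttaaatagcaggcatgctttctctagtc
F13a1, chr13:37050245-37050494, minus strand: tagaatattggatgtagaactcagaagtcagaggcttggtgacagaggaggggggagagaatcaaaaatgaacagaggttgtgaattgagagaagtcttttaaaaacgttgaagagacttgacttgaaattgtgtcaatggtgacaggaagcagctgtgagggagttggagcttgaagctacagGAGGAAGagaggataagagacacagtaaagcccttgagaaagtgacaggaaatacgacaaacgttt
Vcan, chr13:89742513-89742762, minus strand: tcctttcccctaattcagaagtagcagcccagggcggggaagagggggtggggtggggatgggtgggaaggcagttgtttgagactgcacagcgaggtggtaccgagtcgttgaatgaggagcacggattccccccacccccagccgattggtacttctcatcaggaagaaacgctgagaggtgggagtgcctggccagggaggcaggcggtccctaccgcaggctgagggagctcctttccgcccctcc
The PU.1 core, searched only as GAGGAAG, was found for 3 of the 7 (Cd300lf, F13a1 and Ly6c2). It was found for 10.4% of all 27025 genes with a promoter of that length. Shorter or variant forms of this core, such as the gaggaa in the Cd68 sequence, were not counted. The AP-1 site was found for 1 of the 7, Cd68, with matches that begin 149 and 24 bases before the start site, and for 6.87% of all genes. The C/EBP core was also found for Cd68 alone of the 7, and for 9.55% of all genes. CACGTG, an E-box, was found for 0 of the 7 and 6.05% of all genes, and TATAAA for Cd300lf and 13%. The matches in these 7 promoters do not overlap each other, and a match describes letters only.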

How the data were processed

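Groups and replicate numbers were read from the sample titles. The submitters' processing notes name GRCm38; no aligner, counting tool or test of the authors is given in the sources used here. Values in 6 library columns, as deposited, were taken to be FPKM from their size and steps, since no header names a unit. The group means that the authors deposited behave as a signal, reads over a size factor. The authors also deposited a fold change (a ratio), a log2 fold change and p-values. The lowest deposited mean was 4.00 scaled reads, so genes under it were not analysed here. Gene IDs resolved 34 blank or altered symbols, and RefSeq (GRCm38.p6) held 13798 of 13839 IDs. Solving for read size gave whole reads (within 0.02 read) for 100.0% of values.

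Here limma 3.58.1 (R 4.3.3) was fitted with an intensity trend to log2(FPKM + 1), two-sided, with group as its only term. Genes needed 1 FPKM or more in 3 libraries or more, and Benjamini-Hochberg adjustment covered all of them. The limma-voom alternative used recovered reads (10 or more in 3 libraries). Fits that leave out libraries asked for 2 libraries. The code was tested on simulated data. Members and lists were chosen with earlier results of these data known. The genes named are the 10 members, Tet1, up to 3 called genes per list and direction with the smallest p, and the genes nearest in profile; some list genes are not reported here. Csf1r, Mertk, Fcgr1, Cd97, Tgm2, Marco, Cd36, Cd163, C1qc, Vsig4, Siglec1, Pdgfra, Pdgfrb, Col5a1, Gm11710 and Gm11711 fall outside that rule. So do Axl, Chil3, Emilin1, Itgav, Laptm5, S100a8 and S100a9. All of these were chosen after their values were seen. Windows of 51 bases came from GENCODE M21 transcripts.

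To check whether replicate numbers pair the libraries, deviations from the group mean were correlated across genes, which are not independent replicates. Same-numbered libraries gave 0.61, 0.36 and 0.21. Each exceeds 0.1, but so did some libraries with different numbers. shTet1 replicate 3 and shNS replicate 2 gave 0.34, and shTet1 replicate 2 and shNS replicate 3 gave 0.14. Pairing is thus uncertain, and the numbers were treated as pairs only in the replicate block. The changes and counts reported come from the fit without the replicate block, which was an alternative.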

Additional observations from a re-analysis of the deposited data

How the results depend on the processing

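The 10 log2 changes were recomputed under 13 alternatives: median-of-ratios scaling, a pseudocount of 0.1, no filter, a filter of 5 FPKM, limma-voom on recovered reads, the replicate block, leaving out both replicate 1 libraries, and leaving out each of the 6 libraries. All 130 values kept their direction and stayed past the threshold, with a largest adjusted p of 0.0268 for Ly6c2 without shTet1 replicate 2. With the replicate block, 9 members were higher and 1 lower, and among all genes 2692 were higher and 4780 lower, against 2254 and 3925 without it; the block changed no call of a member. It did add calls in the lists, none by more than 1.5 times: neutrophil markers had 4 higher and 8 lower, against 3 and 6, Ly6 genes 4 higher, against 3, and 5 other counts rose by 1. Vcan ranged from −4.18 to −2.73, with −3.97 at a pseudocount of 0.1. Ly6c2 ranged from 0.74 to 1.16 and Lyz2 from 1.98 to 2.30. Counts in the gene lists differed by more than 1.5 times from those reported in 25 of 442 comparisons, among them the filter of 5 FPKM, which tests fewer genes (8 macrophage genes higher, against 13, and 7 CD300 and TREM genes, against 12). With median-of-ratios scaling 2895 genes were higher and 2743 lower. Precision is limited by 3 libraries per group, and for Vcan in shTet1 by 111 to 176 reads per library.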
